A study of Mus musculus with 6 samples.

Results

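Megakaryocyte and platelet genes were followed in healing bone of mice that lack Cyp24a1, the enzyme that inactivates vitamin D hormone. The 9 genes were Pf4, Ppbp, Gp1bb, Gp9, Gp5, Treml1, Tubb1, Clec1b and Nfe2, and every probe set whose single gene symbol was one of them was taken. This gave 10 of the 45037 probe sets that were not controls, and each of the 9 genes was measured, of 18193 genes in all that had a probe set with a single symbol. A further probe set that lists both Septin5 and Gp1bb was left out.

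The tested mice were Cyp24a1 (-/-) and are called null, and they were set against heterozygous Cyp24a1 (+/-) littermates. The controls thus also carry a disrupted allele, and no wild-type group is analysed here. Both groups were of C57BL6J x 129SV mixed background and 12 weeks old, had a tibial osteotomy stabilised by an intramedullary rod, and gave callus, the repair tissue around the break, at day 14. Total RNA was hybridised to Affymetrix Mouse 430_2 arrays, 3 per genotype. The labels do not say that each array came from a separate mouse, so a p-value here reflects how far these samples spread, which may in part be technical. Each value is a log2 level of 1 probe set, and no probe set's level is compared with another's.

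Megakaryocytes are very large polyploid cells of the bone marrow that shed platelets into the blood. They load their granules with chemokines and clotting factors, cover their surface with receptors that catch von Willebrand factor and collagen, and build proplatelets along microtubule bundles made with a lineage-specific tubulin. In a fracture, platelets form the first clot and release growth factors, while callus that contains marrow also contains megakaryocytes.

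In bulk tissue, fewer cells of a type and less RNA per cell cannot be told apart. The tissue carried the bone collagen transcript Col1a1 at 13.73 to 14.14 on null arrays, against 13.57 to 14.28 on heterozygous arrays. The muscle actin transcript Acta1 was at 14.40 to 14.46 on null arrays, against 14.43 to 14.49 on heterozygous arrays. Acta1 lay at the top of the range of all values, which ended at 14.49, so it cannot show equal muscle content. Marrow transcripts set 2 arrays apart, 1 in each group. Each gene was centred on its own mean over all 6 arrays. The 17 neutrophil genes then averaged -2.48 on null replicate 1 and -2.96 on heterozygous replicate 3, while the remaining 4 arrays ran between 1.10 and 1.70. The 15 erythroid genes averaged -2.42 and -2.08 there, while the remaining 4 arrays ran between 0.59 and 1.43. These 2 arrays are called marrow-poor after these transcripts, and marrow content itself was not measured. Null replicate 1 and heterozygous replicate 1 had low Y-linked transcripts. After adjustment over all probe sets limma called none at 0.05 (0%), and 3.69% had an unadjusted p under 0.05.

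Of the 9 genes, 8 followed the neutrophil and erythroid transcripts of the arrays and 1, Pf4, did not. Ppbp, Gp1bb, Gp9, Gp5, Treml1, Clec1b, Tubb1 and Nfe2 had their 2 lowest values on null replicate 1 and heterozygous replicate 3. This pattern was seen in 2999 of the 18193 genes and in 13.4% of all probe sets. Pf4 was highest on null replicate 1, and it was the only member whose 3 null values all lay above the 3 heterozygous values. That separation occurred in 753 of the 18193 genes and in 3.57% of all probe sets. In all 6 arrays together, 6 of the 9 genes were higher in null callus and 3 were lower, with a median difference of 0.04. Of all genes 49.7% were higher, and of all probe sets 48%.

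**Figure D1:**
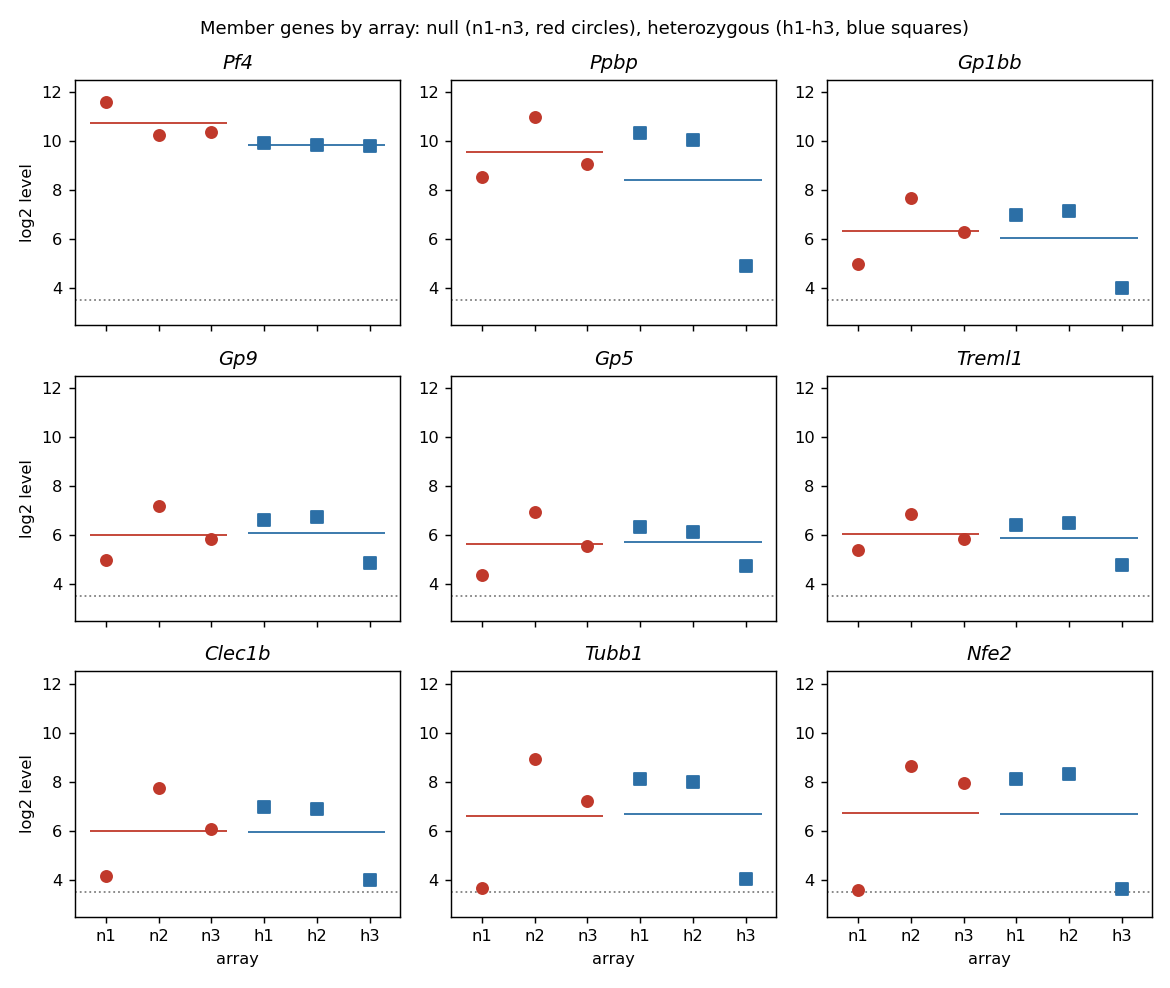
Log2 level (y axis) of each member gene on each array (x axis), with null arrays n1 to n3 as red circles on the left and heterozygous arrays h1 to h3 as blue squares on the right. Horizontal lines are group means, and the dotted line is the highest value of silent sex-linked transcripts, 3.52; Pf4 has all null points above the heterozygous ones, and the other 8 genes are low on n1 and h3.

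The granule chemokines Pf4 and Ppbp are both stored in platelet alpha granules, and their genes lie next to each other on chromosome 5 with 0 annotated genes between them. Their promoters are shown because neighbouring genes for the same granule had unlike values across the arrays. The sequences run from 250 bases before to 50 after the annotated start, from RefSeq on GRCm38.p6, at chr5:90772185-90772484 (plus strand) for Pf4 and chr5:90768268-90768567 (plus strand) for Ppbp. Capitals mark matches, on either strand, to AGATAA or TGATAA, bound by GATA factors, to AGGAAG or CGGAAG, bound by ETS factors, and to TGAGTCA, the core of the NF-E2 site.
Pf4: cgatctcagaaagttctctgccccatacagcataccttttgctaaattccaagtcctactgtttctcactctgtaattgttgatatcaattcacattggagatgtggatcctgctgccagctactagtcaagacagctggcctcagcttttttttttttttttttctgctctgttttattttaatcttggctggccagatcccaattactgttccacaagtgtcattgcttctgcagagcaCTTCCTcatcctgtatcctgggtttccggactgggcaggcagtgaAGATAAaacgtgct
Ppbp: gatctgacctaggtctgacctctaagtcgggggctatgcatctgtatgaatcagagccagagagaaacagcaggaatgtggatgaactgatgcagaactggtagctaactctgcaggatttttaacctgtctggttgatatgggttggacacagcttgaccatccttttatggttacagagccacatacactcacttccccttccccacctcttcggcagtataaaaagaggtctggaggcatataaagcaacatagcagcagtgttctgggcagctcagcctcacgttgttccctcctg
The Pf4 window held an ETS match at bases 242 to 247 and a GATA match at bases 287 to 292, counted from its 5′ end, where base 251 is the annotated start. The Ppbp window held none of these letters.

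Pf4, or platelet factor 4 (Cxcl4), is a heparin-binding CXC chemokine. Its values were 11.60, 10.26 and 10.39 in the null arrays, against 9.91, 9.83 and 9.82 in the heterozygous arrays. The heterozygous values lay close together, and null replicate 1 stood well above the other null arrays. Pf4 averaged 10.75 ± 0.74 in null and 9.85 ± 0.05 in heterozygous callus (SD, n = 3 each), a difference of 0.90 (SE 0.35, 95% interval 0.06 to 1.73) or 1.86-fold. Its unadjusted p in limma was 0.0384, against 1.63% of probe sets with such a p and a higher null level, and it did not pass after adjustment over all probe sets (adjusted p = 0.999). The two-sided exact permutation p was 0.1, the smallest that 3 against 3 arrays allow.

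The size of the Pf4 difference depended on null replicate 1. Without that array the difference was 0.47 (SE 0.11), and without both marrow-poor arrays it was 0.46 (SE 0.13, 95% interval 0.13 to 0.79). In the fit without both arrays limma's unadjusted p was 0.0149, where 7.67% of all probe sets were under 0.05, and the adjusted p was 0.644. With a marrow score, averaged from the neutrophil and the erythroid list, as a covariate the difference was 0.89 (SE 0.26, limma adjusted p = 0.621). The direction was the same in all of these. In the fits without arrays it could not turn, since all null values of Pf4 lay above all heterozygous ones. Leaving out heterozygous replicate 3 alone gave a 95% interval of -0.15 to 1.92, which includes 0. The unadjusted p in limma was then 0.081, and it was 0.079 without heterozygous replicate 1 and 0.087 without heterozygous replicate 2.

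Macrophages are known to express Pf4 too, and the macrophage list shared part of its pattern across the arrays. The mean deviation of 11 macrophage genes was 1.04, -0.33 and 0.28 in the null arrays, against -0.33, -0.68 and 0.03 in the heterozygous arrays, so null replicate 1 was highest for this list as well. All 11 were higher in null callus, against 49.7% of all genes, with a median difference of 0.53, and 0 passed after adjustment. Endothelial (9 of 9) and haematopoietic progenitor genes (8 of 8) were all higher too, and skeletal muscle genes (0 of 8) were not. Without null replicate 1 the median difference of the macrophage list was 0.17, and not all of its genes stayed higher. On heterozygous replicate 3 Pf4 lay 0.05 below the mean of the other heterozygous arrays. The macrophage list lay 0.53 above it there, with a median over its genes of 0.81. Csf1r, the receptor for the main macrophage growth factor, was at 11.89, 10.73 and 11.41 in the null arrays, against 10.64, 10.57 and 11.42 in the heterozygous arrays. As a measure of likeness, the root mean square distance between 2 sets of deviations over the 6 arrays was used. It was 0.29 between Pf4 and the macrophage list, 0.59 to the endothelial list, 2.02 to the erythroid list and 1.71 to the mean of the other 8 members. The part of macrophage RNA in the Pf4 difference was not tested.

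**Figure D2:**
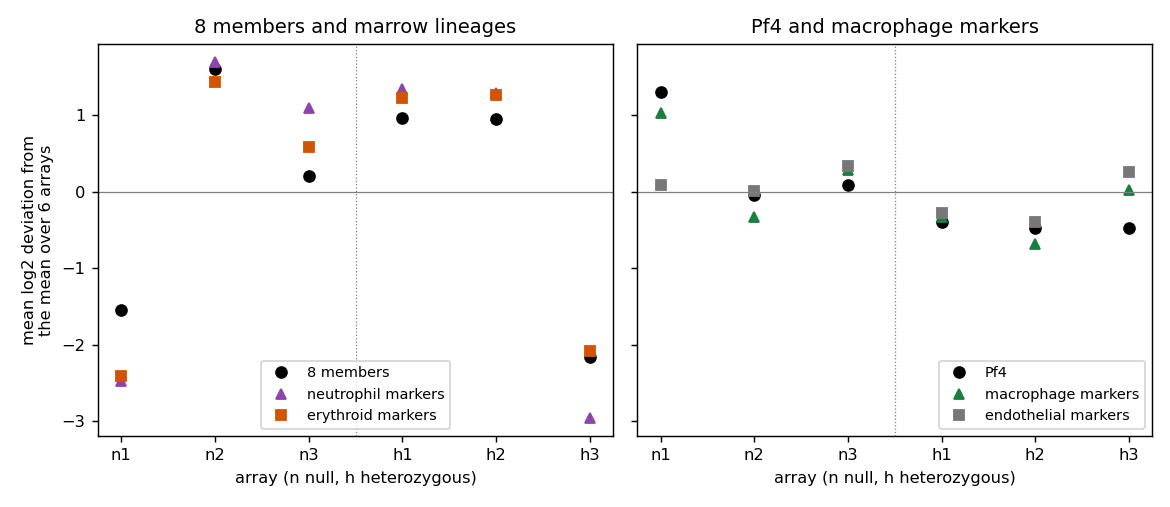
Mean log2 deviation from each gene's mean over the 6 arrays (y axis) by array (x axis; n null, h heterozygous). The left panel sets the 8 members without Pf4 beside neutrophil and erythroid markers, all lowest on n1 and h3; the right panel sets Pf4 alone beside macrophage and endothelial markers, with Pf4 and the macrophage list highest on n1.

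Ppbp encodes pro-platelet basic protein, the precursor of the neutrophil attractant Cxcl7. Its values were 8.55, 10.99 and 9.07 in the null arrays, against 10.32, 10.04 and 4.89 in the heterozygous arrays. The groups overlapped, and heterozygous replicate 3 was far below every other array. Ppbp averaged 9.54 ± 1.28 in null and 8.42 ± 3.06 in heterozygous callus (SD, n = 3 each), a difference of 1.12 (SE 1.50, 95% interval -2.50 to 4.73) that did not pass limma's test (adjusted p = 0.999). Without heterozygous replicate 3 it was -0.64 (SE 0.71), and without both marrow-poor arrays -0.15 (SE 0.60).

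Between the 2 marrow-poor arrays Ppbp was the least alike of the members. Null replicate 1 was 3.66 above heterozygous replicate 3, or 12.6-fold, although both had few neutrophil and erythroid transcripts. Pf4 was 1.78 higher on null replicate 1, or 3.43-fold, and Gp1bb 1.001 higher, or 2.002-fold. The other 6 genes differed by between -0.35 and 0.63 there. Of these, Nfe2, Tubb1 and Clec1b lay only 0.06 to 0.65 above the level of silent transcripts on both arrays, where differences are compressed. Gp1bb lay 0.49 above that level on heterozygous replicate 3, and Ppbp 1.37 above it. With 1 array on each side this has no replicate check.

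The GPIb-IX-V complex is the platelet receptor for von Willebrand factor, and it tethers platelets to a damaged vessel wall. Gp1bb encodes the beta chain of GPIb, Gp9 encodes GPIX and Gp5 encodes GPV, all leucine-rich repeat membrane proteins; Gp1ba, for the ligand-binding chain, is not analysed here. The promoters of Gp9 and Gp5 are shown because these genes had the most alike values across the arrays of any member pair. They lie at chr6:87777820-87778119 (plus strand) and chr16:30310732-30311031 (minus strand) on GRCm38.p6, with capitals as above.
Gp9: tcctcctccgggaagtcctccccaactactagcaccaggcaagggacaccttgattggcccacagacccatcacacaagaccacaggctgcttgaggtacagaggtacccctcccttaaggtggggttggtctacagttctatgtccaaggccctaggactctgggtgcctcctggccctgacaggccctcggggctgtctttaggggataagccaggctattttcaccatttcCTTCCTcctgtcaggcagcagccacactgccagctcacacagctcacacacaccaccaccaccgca
Gp5: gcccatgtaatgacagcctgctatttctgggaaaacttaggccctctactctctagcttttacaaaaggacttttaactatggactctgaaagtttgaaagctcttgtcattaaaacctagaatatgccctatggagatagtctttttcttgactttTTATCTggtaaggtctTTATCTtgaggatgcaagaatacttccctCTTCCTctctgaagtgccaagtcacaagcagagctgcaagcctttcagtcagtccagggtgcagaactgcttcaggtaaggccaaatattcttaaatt
Gp9 held an ETS match at bases 235 to 240, and Gp5 held GATA matches at bases 158 to 163 and 174 to 179 and an ETS match at bases 203 to 208.

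Gp1bb (probe set 1422977) was at 5.01, 7.67 and 6.28 in the null arrays, against 6.997, 7.16 and 4.01 in the heterozygous arrays. Its other probe set, 1456427, stayed between 3.34 and 3.63, with 3 of 3 null values and 2 of 3 heterozygous values at or under the highest value of silent sex-linked transcripts, 3.52, so it carries no usable level. Gp9 was at 4.99, 7.19 and 5.82 in the null arrays, against 6.63, 6.75 and 4.88 in the heterozygous arrays. Gp5 was at 4.37, 6.94 and 5.57 in the null arrays, against 6.33, 6.14 and 4.72 in the heterozygous arrays. In all 3 genes the groups overlapped, the 2 marrow-poor arrays were lowest and null replicate 2 was highest.

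The differences were 0.27 (SE 1.01) for Gp1bb, -0.09 (SE 0.70) for Gp9 and -0.10 (SE 0.71) for Gp5, and 0 of them passed limma's test (adjusted p = 0.999 each). The 95% intervals were wide, -2.16 to 2.69 for Gp1bb, -1.76 to 1.59 for Gp9 and -1.81 to 1.602 for Gp5. The distance between the values of Gp9 and Gp5 was 0.18, the smallest of the 36 member pairs.

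Treml1 and Clec1b encode platelet membrane receptors. Treml1 (TLT-1) is held in alpha granules, and Clec1b (CLEC-2) is the activating receptor for podoplanin. Treml1 was at 5.41, 6.87 and 5.83 in the null arrays, against 6.40, 6.50 and 4.77 in the heterozygous arrays. Clec1b was at 4.17, 7.74 and 6.08 in the null arrays, against 6.98, 6.87 and 3.99 in the heterozygous arrays. Both had overlapping groups. The differences were 0.14 (SE 0.56) and 0.04 (SE 1.12), neither past limma's test (adjusted p = 0.999 each).

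Tubb1 encodes the beta-1 tubulin of the platelet marginal band. It was at 3.68, 8.92 and 7.24 in the null arrays, against 8.10, 7.98 and 4.02 in the heterozygous arrays. Nfe2 encodes the p45 subunit of NF-E2, a basic leucine zipper factor needed for platelet release that is also made by red cell precursors and is known to act on Tubb1. It was at 3.58, 8.66 and 7.93 in the null arrays, against 8.12, 8.30 and 3.65 in the heterozygous arrays. On the 2 marrow-poor arrays these genes lay close to the level of silent transcripts, with Nfe2 0.06 above it on null replicate 1 and 0.13 above it on heterozygous replicate 3, and Tubb1 0.16 and 0.50 above it, where differences of array values are compressed.

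Tubb1 on null replicate 1 was 4.39 below the mean of the other null arrays, or 21.0-fold lower, and on heterozygous replicate 3 it was 4.02 below the mean of the other heterozygous arrays, or 16.3-fold lower. Nfe2 was 4.72 below on null replicate 1 and 4.56 below on heterozygous replicate 3, or 26.3-fold and 23.6-fold lower. For the platelet surface genes the gaps were narrower, at 1.52 and 1.81 for Gp9, 1.88 and 1.51 for Gp5 and 0.94 and 1.68 for Treml1. They were 1.97 and 3.07 for Gp1bb and 2.74 and 2.94 for Clec1b. On heterozygous replicate 3 Gp1bb and Clec1b lay 0.49 and 0.47 above the level of silent transcripts, so their gaps may be understated. The genotype differences of Tubb1 (-0.09, SE 1.61) and Nfe2 (0.04, SE 1.73) did not pass limma's test (adjusted p = 0.999 each).

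The 8 members without Pf4 shared a second pattern among the other 4 arrays. In all 8 genes null replicate 2 was the highest of these 4 arrays and null replicate 3 the lowest, with both heterozygous arrays in between. This order was found in 1329 of the 18193 genes and in 7.6% of all probe sets. Null replicate 2 was above null replicate 3 by between 0.73 (Nfe2) and 1.91 (Ppbp), or 1.66-fold to 3.76-fold. Heterozygous replicates 1 and 2 differed by between -0.18 (Nfe2) and 0.28 (Ppbp). With null replicates 2 and 3 at the extremes, the 2 null arrays must lie farther apart than the 2 heterozygous ones. The groups then cannot be separate either. So 0 of the 8 genes had separate groups among these 4 arrays, against 39.4% of all probe sets in either direction. That 0 follows from the order of the arrays and adds nothing to it.

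The same order of arrays was found in part of the erythroid and neutrophil genes and in few early B cell or progenitor genes. The mean of the 8 members differed by 1.39 between null replicates 2 and 3, against 0.85 for the erythroid and 0.60 for the neutrophil list, and the order was present in 11 of 15 erythroid and 7 of 17 neutrophil genes. It was present in 1 of 10 early B cell and 1 of 8 haematopoietic progenitor genes, whose means differed by 0.25 and -0.03 between these arrays. The early B cell genes Rag1, Vpreb1 and Pax5 stayed under the level of silent transcripts, 3.52, on every array, so they can show no order. The progenitor genes were not uniform. Myb was at 4.33, 8.14 and 7.30 in the null arrays, against 7.66, 7.58 and 4.22 in the heterozygous arrays, while Mecom stayed between 6.89 and 7.20. On the marrow-poor arrays the 8 members averaged 2.45 below the other null arrays on null replicate 1 and 3.11 below the other heterozygous arrays on heterozygous replicate 3. The neutrophil list was 3.88 and 4.28 below and the erythroid list 3.42 and 3.32 below. Early B cell genes were 0.46 and 0.38 below, a mean that includes the genes under the level of silent transcripts. By distance over the 6 arrays, the 8 members were at 0.43 from the erythroid list, 0.66 from the neutrophil list and 1.80 from the macrophage list. These distances describe 6 arrays that share 2 marrow-poor ones, and none of these array differences is a test of genotype.

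Taking neutrophil and erythroid transcripts into account narrowed the intervals of the genotype differences. It left 0 of the 9 genes past the adjusted threshold, where 0.00222% of all probe sets were. With the marrow score as a covariate, 7.76% of all probe sets had an unadjusted p under 0.05, and among the members this held for Pf4 alone. Nfe2 then differed by 0.07 (SE 0.13, 95% interval -0.24 to 0.37) and Tubb1 by -0.06 (SE 0.24, interval -0.63 to 0.51). Gp9 differed by -0.07 (SE 0.26) and Gp5 by -0.09 (SE 0.27). Ppbp kept a wide interval, with a difference of 1.14 (SE 0.73, interval -0.61 to 2.90). Without the 2 marrow-poor arrays the median difference of the 9 genes was -0.02.

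**Figure D3:**
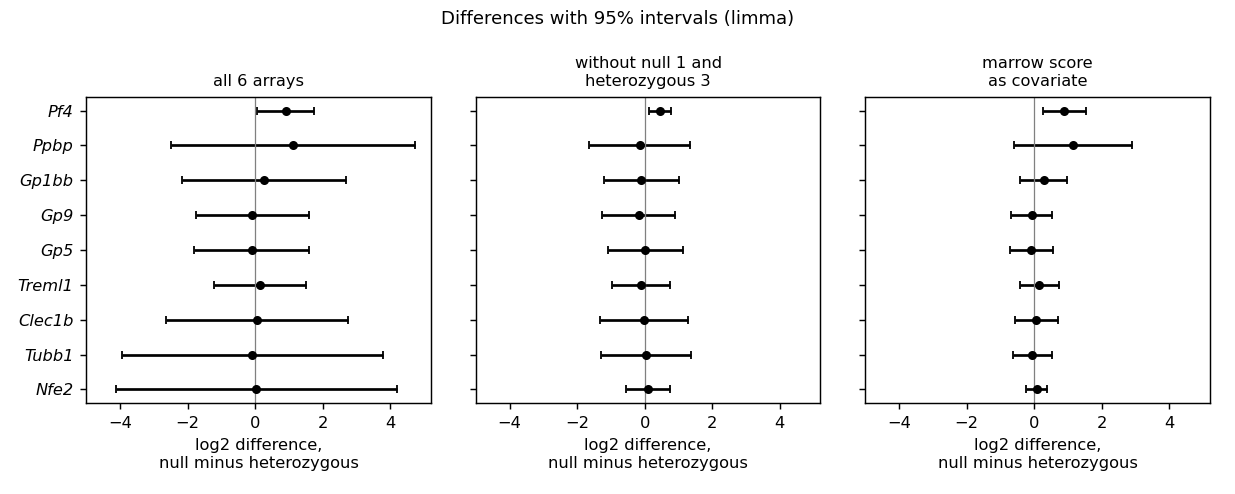
Log2 difference, null minus heterozygous (x axis), with 95% limma intervals as bars, for the 9 genes (rows) in all 6 arrays, without null replicate 1 and heterozygous replicate 3, and with the marrow score as a covariate. Pf4 is the only gene whose unadjusted interval lies above 0 in all 3 panels, from 0.06, 0.13 and 0.26 upward. The intervals of the other genes include 0. Without heterozygous replicate 3 alone, a fit not drawn here, the Pf4 interval was -0.15 to 1.92.

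Leaving out a single array turned the sign of most members. Without null replicate 1 all 9 genes were higher in null callus, with a median of 0.92, and without heterozygous replicate 3 only Pf4 was, with a median of -0.69. Without null replicate 2 the median was -0.68, with 2 of 9 genes higher. Pf4 was the 1 gene that stayed higher in null callus without any single array, at 0.47 to 1.14. Its null values all lay above its heterozygous ones, so its sign could not turn. That result follows from the separate groups and adds nothing to them.

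Promoters were matched for 8 members (all except Nfe2). A GATA match was present in 3 of the 8 windows (Pf4, Gp5 and Clec1b), against 18.5% of 32544 RefSeq promoter windows of the same length. An ETS match was present in 5 (Pf4, Gp1bb, Gp9, Gp5 and Tubb1), against 46.3% of all windows, and the NF-E2 core in 0, against 5.19%. A match is a description of letters and not of binding.

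A wider list of megakaryocyte and platelet genes held 89 further genes, of which 81 were measured; Gp1ba is among those not analysed here. In null callus 55 were higher and 26 lower, with a median difference of 0.17, against -0.0017 over all 18193 genes. None passed limma's test after adjustment over all probe sets (lowest adjusted p over the probe sets 0.775). Of the 81, 10 had an unadjusted p under 0.05, with 8 higher in null callus and 2 lower. Over all 18193 genes, 375 with such a p were higher and 442 lower. Over all probe sets the shares were 1.63% and 2.06%. Many of these genes also serve macrophages, endothelium or other cells, and the median was 0.055 with 44 of 81 higher without heterozygous replicate 3.

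Of the 81 measured genes of the wider list, 28 had their 2 lowest values on the marrow-poor arrays. This held for 2999 of all 18193 genes and for 13.4% of all probe sets. Itga2b, Itgb3 and Gata1 were among these 28, and Gp6 was not. Itga2b, which encodes the integrin alpha IIb chain of the fibrinogen receptor, was at 6.15, 8.26 and 7.07 in the null arrays, against 7.59, 7.69 and 5.74 in the heterozygous arrays. Its partner chain Itgb3 was at 5.24, 8.06 and 7.06 in the null arrays, against 7.56, 7.56 and 5.62 in the heterozygous arrays. Gata1, the master factor of red cells and megakaryocytes, was at 4.04, 7.10 and 6.16 in the null arrays, against 6.76, 7.10 and 3.71 in the heterozygous arrays. All 3 were lowest on the marrow-poor arrays, had overlapping groups and differed by 0.15 (SE 0.70), -0.13 (SE 0.83) and -0.09 (SE 1.11). Gp6, the collagen receptor, varied little, between 4.07 and 4.48 in null and between 4.01 and 4.40 in heterozygous callus. These values lay near the level of silent transcripts, 3.52, where differences are compressed, so Gp6 could show little of the pattern. Vwf, which endothelium makes too, was at 7.70, 8.66 and 8.02 in the null arrays, against 8.23, 8.12 and 7.43 in the heterozygous arrays, a difference of 0.20 (SE 0.31).

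The genes of the wider list with an unadjusted p under 0.05 were F13a1, Flna, Plek, Syk, Itga6, Cd9, Ptgir, Actn1, Itga2 and Cd151. F13a1, the A chain of clotting factor XIII, was at 10.19, 9.45 and 9.94 in the null arrays, against 9.19, 9.13 and 8.85 in the heterozygous arrays, a difference of 0.80 (SE 0.21). F13a1 is a macrophage gene as well. The macrophage list described above was higher in null callus too, with a median of 0.53 that was 0.17 without null replicate 1. The part of macrophage RNA in the F13a1 difference was not tested. The actin crosslinker Flna differed by 0.44 (SE 0.09), with null arrays between 10.19 and 10.26 and heterozygous arrays between 9.73 and 9.83. Plek, the pleckstrin that platelets share with leukocytes, differed by 0.59 (SE 0.18), the tyrosine kinase Syk by 0.46 (SE 0.15) and the laminin receptor chain Itga6 by 0.44 (SE 0.15). The tetraspanin Cd9 differed by 0.42 (SE 0.16), the prostacyclin receptor Ptgir by 0.41 (SE 0.14) and the actinin Actn1 by 0.41 (SE 0.15). On the lower side were the collagen receptor chain Itga2, at -0.31 (SE 0.12), and the tetraspanin Cd151, at -0.26 (SE 0.11), both named after their values were seen; Itga2 lay near the level of silent transcripts. None of these 10 genes passed limma's test after adjustment (adjusted p = 0.999 each). In these 10 genes the groups did not overlap, as in 8.95% of all probe sets. The 10 genes were picked by a p from the same arrays, which favours separate groups, so the 2 shares cannot be compared. In the whole wider list, all null values lay above the heterozygous ones in 12 of 81 genes and below them in 3. Over all 18193 genes these counts were 753 and 1090.

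By subgroup, the wider list was higher in null callus in 9 of 13 adhesion receptors (median 0.15), 5 of 8 agonist receptors (0.13), 7 of 10 granule cargo genes (0.18) and 11 of 13 genes of granule biogenesis and secretion (0.16). It was higher in 8 of 10 cytoskeletal genes (0.27) and 11 of 15 signalling genes and eicosanoid enzymes (0.28). Only 4 of 12 transcription factors were higher (median -0.09). Among the transcription factors, Runx1, which is also an osteoblast and chondrocyte factor, was lower on all 6 of its probe sets, at -1.01 (SE 0.49) on the named one. That probe set was at 9.19, 8.18 and 7.19 in the null arrays, against 9.14, 8.88 and 9.58 in the heterozygous arrays. The groups overlapped, and Runx1 did not pass limma's test (adjusted p = 0.999). Gata2 differed by 0.39 (SE 0.24) and Fli1 by 0.17 (SE 0.19).

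**Figure D4:**
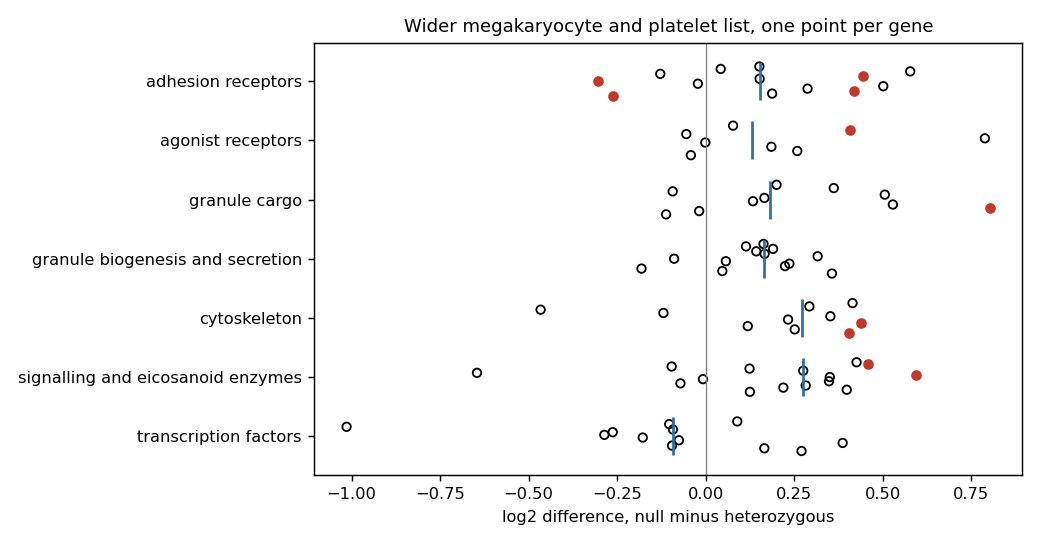
Log2 difference, null minus heterozygous (x axis), for each gene (point) of the 7 subgroups of the wider list (rows); filled red points have an unadjusted limma p under 0.05 and blue bars are subgroup medians. Of 81 genes, 55 lie right of 0, and the transcription factors have the only median below 0, at -0.09.

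The 10 genes outside the list whose values across the 6 arrays lay nearest to the mean of the 9 members were Adgrg3, Gfi1b, Ces2g, Mcemp1, Tal1, Gfi1, Fgf1, Cdc6, Cd24a and Mcpt8, at distances of 0.16 to 0.28. Gfi1b and Tal1 are transcription factors of red cells and megakaryocytes, Gfi1 is a factor of granulocytes and Mcpt8 is a basophil protease. Gp1bb was the nearest of all 18193 genes (0.13), with its own values part of that mean, and Clec1b was at rank 16. Ppbp was at rank 1379, Nfe2 at 3030 and Pf4 at 17134. The distance counts the size of changes as well as their order. Nfe2, which spanned 5.08 from lowest to highest array, was low on the same 2 arrays as the mean. Nearest to Pf4 alone, a list made after its values were seen, were Cyp1b1, Teddm3 and Ptx3, at 0.19 to 0.22.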

How the data were processed

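Callus RNA of 3 null and 3 heterozygous samples was hybridised to Affymetrix Mouse 430_2 arrays, per the labels. The deposited table holds 1 value per probe set and array, taken to be log2 from its range (1.65 to 14.49; array medians 4.55 to 4.59); the authors' software, background correction and normalization were not stated: not given in the sources used here. Control probe sets (64 of 45101) were left out. Gene symbols came from the platform annotation, and all 9 member symbols matched RefSeq (GRCm38.p6) by gene identifier. Promoter sequences are from RefSeq.

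Probe sets were tested by lmFit and eBayes of limma 3.58.1 under R 4.3.3 (null minus heterozygous, two-sided) with Benjamini-Hochberg adjustment over 45037 probe sets and a threshold of 0.05; the fit was tested on simulated data. Residual degrees of freedom were 4 and the prior added 2.50. The number of arrays limits the precision. Of several probe sets for a gene, the one of highest average level stood for it. Lists were described by counts and medians. The guide to values not above background was the highest value, 3.52, of Xist on arrays with Y-linked transcripts and of Y-linked genes on arrays without.

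The members, lists, marrow-poor arrays and marrow score were chosen with earlier results of these data known. By rule, the text names all members, 8 chosen wider genes and the 2 with the lowest unadjusted p per subgroup (of which some are given), markers with high levels and the 10 nearest genes. The markers Pax5, Vpreb1, Rag1 and Myb fall outside this rule and were named after their values were seen. Alternatives were leaving out arrays, a marrow covariate, other normalizations, a dim-probe filter, array weights, 1 probe set per gene and eBayes with trend and robust estimation.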

Additional observations from a re-analysis of the deposited data

How the results depend on the processing

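In 15 settings beside the one reported, 148 differences of member probe sets were recomputed, 118 with the same direction and 30 with the other. None passed the adjusted threshold in limma (lowest adjusted p = 0.466, Pf4 with array weights). Quantile and cyclic loess normalization, median centring, the intensity trend with a robust prior, the median filter, 1 probe set per gene and the marrow score turned no sign. Leaving out 1 array gave -0.64 to 2.07 for Ppbp, -0.75 to 0.92 for Gp1bb (probe set 1422977), -0.11 to 0.010 for Gp1bb (probe set 1456427), -0.69 to 0.42 for Gp9, -0.76 to 0.52 for Gp5, -0.42 to 0.46 for Treml1, -0.93 to 0.96 for Clec1b, -1.43 to 1.38 for Tubb1 and -1.48 to 1.61 for Nfe2, and 0.47 to 1.14 for Pf4. Without both marrow-poor arrays the sign turned for Ppbp (-0.15), Gp1bb (-0.099), Treml1 (-0.10), Clec1b (-0.022), Gp5 (0.020) and Tubb1 (0.035), and with array weights for Gp1bb (-0.11), Treml1 (-0.13) and Clec1b (-0.26); the cause was not tested. The count of probe sets past the adjusted threshold was 0 in all settings except the marrow score, where it was 1, the unnamed probe set 1447360. The unadjusted count was 1660, and it was 4631 with array weights, 3453 without both marrow-poor arrays, 3495 with the marrow score, 2721 without heterozygous replicate 3, 1048 without null replicate 3, and with heterozygous replicate 1 left out it was 1062. The median difference of the wider list ran from 0.055 to 0.27 over all settings. The 3 arrays per group and values near the level of silent transcripts limit what can be seen. No paired analysis was possible because the labels give the groups no shared replicate numbers.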
